A study of Glycine max with 4 samples.

Results

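Binding sites of the soybean protein GLYMA.13G153200 in the outermost 1 Mb of the chromosomes are described here. A site was taken as shared when a peak of one ChIP replicate overlapped a peak of the other by at least 1 bp, where each peak entered a single pair and the largest overlaps were taken first. The position of a site is the mean of its 2 summits, and its distance was measured from position 0 at the start of a chromosome and from the end of the last peak in either list at the far end. By this rule 1579 of the 20217 shared sites on the 20 chromosomes lay in the terminal 1 Mb, 756 at the starts and 823 at the far ends. The whole series holds 20335 shared sites, including those on unplaced scaffolds.

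Chromatin immunoprecipitation with sequencing (ChIP-seq) was done on embryos of the cultivar Williams 82 at early maturation, dissected from seeds of 6 to 7 mm. The ChIP group comprised 2 samples precipitated with an antibody against a peptide of GLYMA.13G153200, and the input group comprised 2 samples of sheared chromatin that was not precipitated. All 4 samples share the genotype, the tissue and the stage, so there is no second condition. The values below come from the peak lists of the 2 ChIP samples, and neither a mock precipitation nor embryos lacking the protein were analysed here, so peaks that do not depend on the protein cannot be told apart from its binding.

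The peak names call the target ABI5. In Arabidopsis, ABI5 is a basic leucine zipper transcription factor of abscisic acid signalling, known for its part in late seed maturation and in the arrest of germination, and proteins of its family bind DNA as dimers at elements with an ACGT core. Soybean chromosomes carry most of their genes on the arms, while the pericentromeric regions are rich in transposons and poor in genes. At the tips the arms run into repetitive DNA and the telomere. Genes and sequence at the sites were not analysed here, because the sources used here name no genome build for the coordinates. All positions are 1-based in that build.

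Shared sites were dense in the terminal 1 Mb, and no difference from the next 4 Mb passed the test. The terminal zone makes up 4.22% of the extent of the chromosomes and held 7.81% of the shared sites. Its density was 39.5 ± 8.21 sites per Mb (SD over 20 chromosomes), against 42.7 ± 8.93 between 1 and 5 Mb from the same ends and 15.8 over the remaining inner part. The mean difference between the terminal zone and the next 4 Mb was −3.19 sites per Mb, with an SD of 11.2 over chromosomes. The terminal zone was sparser on 12 of 20 chromosomes (two-sided exact permutation test by sign flips, p = 0.22, adjusted p = 0.55). The 95% interval of the difference ran from −8.44 to 2.02. Each of the 15 tests reported here treats the chromosome as the unit and was adjusted over the 15 by the Benjamini-Hochberg method. They describe these 2 libraries, since both enter the value of every chromosome, and with 20 chromosomes the smallest possible p is 1.91e-06.

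All peaks of a single replicate, paired or not, gave differences of the same sign. Replicate 1 had 2199 peaks in the terminal zone, or 55.0 ± 10.9 per Mb, against 60.5 ± 12.4 per Mb in the next 4 Mb (SD over 20 chromosomes, adjusted exact permutation p = 0.51). In replicate 2 the 2196 terminal peaks gave 54.9 ± 9.44 per Mb, against 59.4 ± 11.8 (adjusted exact permutation p = 0.52). Both lists were sparser at the ends on 12 of 20 chromosomes.

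The outermost part of the terminal zone held fewer sites than the rest of it, with the larger drop at the starts. In steps of 100 kb from the end, the first held 24.8 shared sites per Mb, the second 29.3, the third 36.0 and the fourth 38.3. The starts held 16.5 per Mb in the first step and 25.5 in the second, and the far ends 33.0 in each. Among the 100 kb steps between 1 and 5 Mb, the lowest held 31.0 per Mb at the starts and 30.0 at the far ends. From 400 kb to 1 Mb the steps lay between 39.8 and 48.0 per Mb. Over the outermost 250 kb the density was 28.1 ± 9.63 per Mb, against 43.3 ± 9.88 from 250 kb to 1 Mb (SD over 20 chromosomes), and it was lower on 17 of 20 chromosomes. These 250 kb were chosen after the profile had been seen, so the values are a description with no test.

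**Figure D1:**
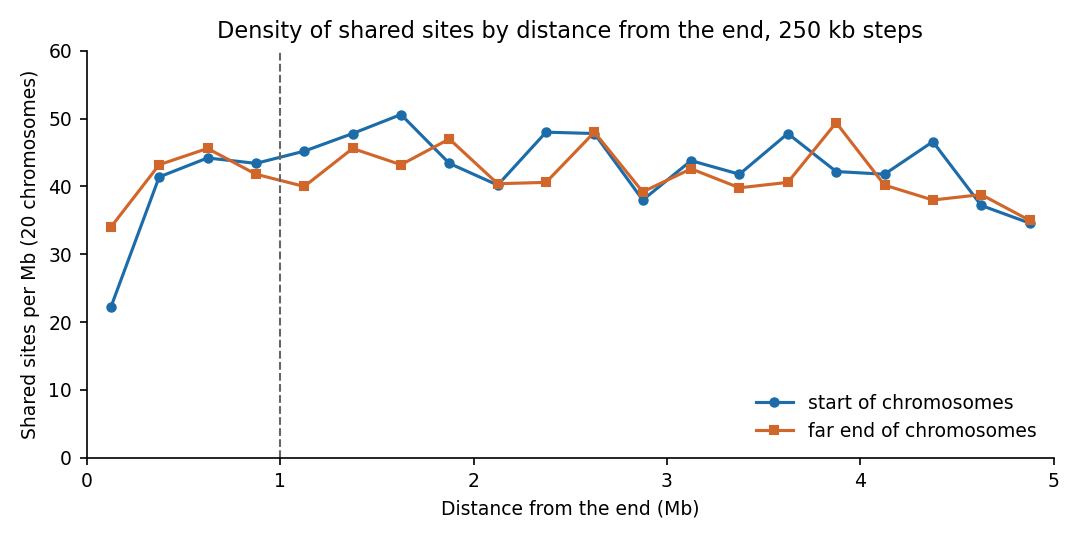
Shared sites per Mb over 20 chromosomes (vertical axis) in 250 kb steps of distance from the end in Mb (horizontal axis), for the starts (circles) and far ends (squares) of the chromosomes; the dashed line marks 1 Mb. The first step is the lowest of the terminal zone, with 22.2 per Mb at the starts and 34.0 at the far ends. The 19 later steps lie between 34.6 and 50.6 per Mb at the starts and between 35 and 49.4 at the far ends.

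A terminal window of 0.5 Mb in place of 1 Mb contains these outermost 250 kb. The difference in shared sites from the zone between 1 and 5 Mb was then −7.46 per Mb. From 250 to 500 kb the density was 42.3 per Mb, against 42.7 between 1 and 5 Mb, so this difference comes from the same outermost 250 kb. With the 0.5 Mb window the difference passed the test, with lower density on 16 of 20 chromosomes (exact permutation p = 0.020, adjusted within that setting alone). The difference was then −11.8 per Mb for peaks of replicate 1 (adjusted exact permutation p = 0.017) and −10.2 per Mb for those of replicate 2 (adjusted exact permutation p = 0.020). Where the starts were measured from the first peak of either list in place of position 0, the difference for shared sites in the 0.5 Mb window was −5.48 per Mb and no longer passed (13 of 20 chromosomes, adjusted exact permutation p = 0.15). Peaks of the single replicates did not pass either, at −8.69 per Mb in replicate 1 and −7.49 per Mb in replicate 2 (lower on 13 and 11 of 20 chromosomes, adjusted exact permutation p = 0.15 for both). With a window of 2 Mb the sign turned, to 0.65 sites per Mb more than between 2 and 5 Mb (adjusted exact permutation p = 0.96).

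The 2 kinds of end were anchored differently, which bears on these outermost values. At the starts, the first shared site lay at a median of 52.7 kb from position 0. It lay closest on chromosome 6, at 16.7 kb, and farthest on chromosome 1, at 226 kb. At the far ends the distance runs from the last peak itself, and the outermost shared site lay within 1 kb of that point on 15 of 20 chromosomes. On the other 5 the last peak had no partner, and the outermost shared site lay 26.9 to 66.8 kb further in. The 15 sites count in the first step of the far ends by construction, while the starts have no such site. The contrast between starts and far ends in that step cannot be told apart from this anchoring. Measured from the first peak at the starts as well, the outermost 250 kb held 32.5 ± 9.8 sites per Mb against 43.2 ± 9.07 further in, and was again lower on 17 of 20 chromosomes. How much of the sequence at the tips can be covered by reads was not tested.

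The individual ends differed widely from each other. The number of shared sites per end had a median of 37.5 and ran from 5 to 67, with an SD of 12.3 over the 40 ends. The 160 windows of 1 Mb between 1 and 5 Mb had a similar mean of 42.7 and an SD of 16.5, and ran from 0 to 86. The fullest end was the far end of chromosome 7, with 67 shared sites, 87 peaks in replicate 1 and 88 in replicate 2. The far end of chromosome 19 followed with 60, and the far ends of chromosomes 3 and 14 with 56 each. The start of chromosome 13 held the fewest, 5 shared sites, with 8 peaks in replicate 1 and 9 in replicate 2. It lay apart from the other 39 ends, of which the next lowest, the start of chromosome 20, held 21.

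**Figure D2:**
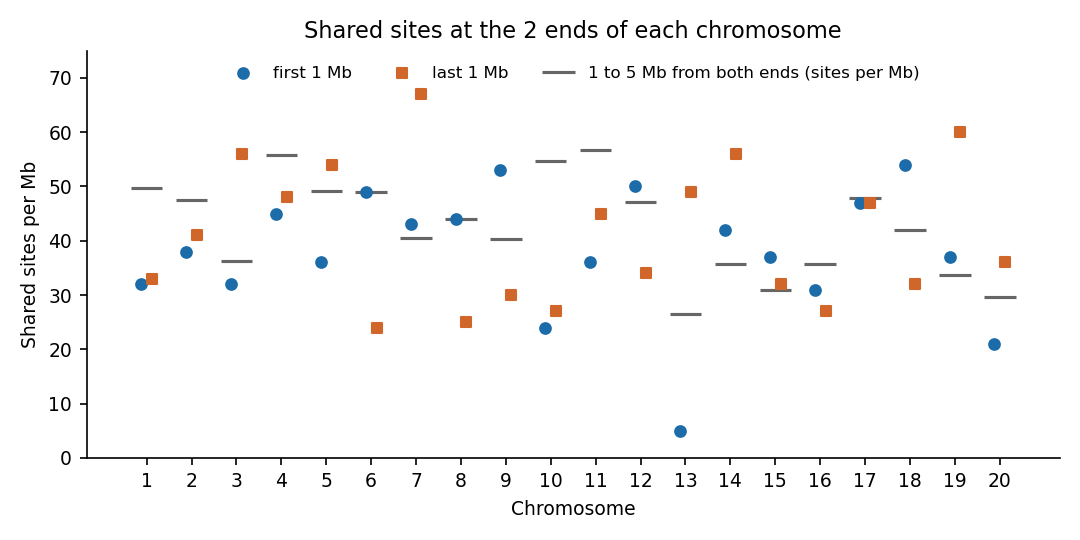
Shared sites per Mb (vertical axis) in the first 1 Mb (circles) and the last 1 Mb (squares) of each of 20 chromosomes (horizontal axis), with a bar at the density 1 to 5 Mb from the 2 ends of the same chromosome. The start of chromosome 13 has 5 sites, and the other ends lie between 21 and 67.

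The start of chromosome 13 stayed sparse beyond the terminal zone, with 5.0 sites per Mb between 1 and 5 Mb. Its outermost site, at 157638 to 158157, was enriched over the caller's local background by a fold of 7.98 in replicate 1 and of 5.41 in replicate 2. The next site inward followed after 407 kb, the longest stretch without a shared site between neighbouring members at any end. That site, at 564781 to 565407, had the highest mean −log10 q of the 5, with folds of 27.6 (replicate 1) and 6.47 (replicate 2). The remaining 3 had folds of 3.90 to 5.27 in replicate 1 and of 5.82 to 10.6 in replicate 2. In replicate 2 alone the strongest of the 5 was the site at 633981 to 634401, with a fold of 10.6. The far end of the same chromosome held 49 shared sites, and its 1 to 5 Mb zone 48.0 per Mb.

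The start and the far end of a chromosome often differed in number of sites, with neither kind of end higher throughout. The first 1 Mb held 37.8 ± 11.8 sites and the last 1 Mb 41.2 ± 12.9 (SD, 20 chromosomes each). The starts had fewer sites on 12 chromosomes, more on 7 and the same number on chromosome 17 (mean difference −3.35, 95% interval −12.1 to 5.33, adjusted exact permutation p = 0.73). The mean difference became −1.2 with starts measured from the first peak, where 9 chromosomes went each way. Without chromosome 13 it was −1.21, with fewer sites at the starts on 11 chromosomes and more on 7. Over the alternative settings it ran from −6.8 (0.5 Mb window) to −0.275 (2 Mb window), with adjusted exact permutation p = 0.21 to 0.96. The widest contrasts were on chromosome 13, with 5 sites at the start and 49 at the far end, and on chromosome 6, with 49 at the start and 24 at the far end. Across the 20 chromosomes the 2 counts had a Pearson r of −0.12 and a Spearman rho of −0.17, given as a description over chromosomes that share both libraries. Across the 40 ends, the count in the terminal 1 Mb and the density of the next 4 Mb had an r of 0.42 and a rho of 0.32. Over the 20 chromosomes the same relation had an r of 0.15 and a rho of 0.082.

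The strength of the terminal sites did not differ detectably from that of sites further in. Their median fold was 4.97 in replicate 1 and 5.39 in replicate 2, against 5.06 and 5.35 between 1 and 5 Mb and 5.09 and 5.38 in the inner part. The central 90% of terminal sites had folds of 3.11 to 12.8 in replicate 1, while replicate 2 spanned 3.21 to 12.9. On the log2 scale the median fold of a chromosome's terminal sites differed from that of its 1 to 5 Mb sites by −0.019 ± 0.073 (SD over 20 chromosomes), and was higher on 10 and lower on 10 (95% interval −0.053 to 0.015, adjusted exact permutation p = 0.57). Among starts and far ends the medians differed by 0.017 on the same scale (adjusted exact permutation p = 0.83). Median fold per end in replicate 1 lay between 4.29 and 5.33 at the starts and between 4.25 and 6.03 at the far ends. In replicate 2 it spanned 4.35 to 6.61 at the starts and 4.45 to 7.01 at the far ends, so the ranges overlapped. Steps of 100 kb within the terminal zone had median folds of 4.60 to 5.55 in replicate 1 and of 4.95 to 5.73 in replicate 2. The outermost of these steps had the fewest sites, with median folds of 5.09 and 5.39. Those medians lay inside the ranges of the 100 kb steps between 1 and 5 Mb, 4.55 to 5.50 and 4.94 to 5.77.

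The share of strong sites at the ends did not differ detectably either. Of the 1579 terminal sites, 145 (9.18%) were among the strongest 10% by mean −log10 q, the caller's adjusted significance, against a background of 10.0% over all shared sites on chromosomes and 9.73% between 1 and 5 Mb. Per chromosome the terminal share was 0.60 percentage points lower (95% interval −2.44 to 1.24, adjusted exact permutation p = 0.73). With the 0.5 Mb window the difference was −2.56 percentage points and negative on 16 of 20 chromosomes (exact permutation p = 0.060, adjusted p = 0.18). No end had more than 7 such sites, and the start of chromosome 15 had none. The strongest and second strongest of all shared sites, by mean −log10 q, were nevertheless both terminal. Terminal sites made up 2 of the 10 strongest, 5 of the 100 strongest and 69 of the 1000 strongest shared sites, while the zone held 7.81% of all sites.

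The strongest terminal site, at the far end of chromosome 18 (57421164 to 57422642), had a fold of 62.7 in replicate 1 and 66.6 in replicate 2. It lay 570 kb from the last peak, and its summits fell on the same base in both replicates. A companion 5.69 kb further in (57415728 to 57416598) reached 44.6 in replicate 1 and 28.5 in replicate 2. The far end of chromosome 18 also had the highest median fold of all ends in replicate 1, at 6.03 over 32 sites.

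The second strongest terminal site lay at the far end of chromosome 8 (47622174 to 47623475), with a fold of 59.1 in replicate 1 and 57.0 in replicate 2. Its neighbour on the side of the chromosome tip (47623779 to 47625132), with a summit 1.67 kb away, was the third strongest and reached 51.9 and 45.8. Another strong site of the same end (47005238 to 47006031) had 35.7 and 22.1. The median fold of this end was 4.38 in replicate 1, lower than at most other ends. The far end of chromosome 8 held 25 sites in all, of which 3 were among the strongest 10% of all shared sites.

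The fourth strongest site was at the start of chromosome 11 (457069 to 458740), with a fold of 50.9 in replicate 1 and 35.6 in replicate 2. That end held a further strong site nearer to the tip (284670 to 285328), with 24.4 and 22.5. The seventh strongest, after the sites of chromosomes 18 and 8 given above, was on chromosome 1 at its far end (56203727 to 56204861), with 41.2 in replicate 1 and 21.1 in replicate 2. Of the 20 strongest terminal sites, the one nearest to a tip lay 65.7 kb from the start of chromosome 19 (64881 to 66067), with 35.2 and 16.3. Close behind, 73.9 kb from the start of chromosome 5 (73303 to 74268), was a site with 27.4 and 17.0.

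Of the remaining sites among the 20 strongest, those at 667072 to 667811 on chromosome 3 (30.4 in replicate 1 and 24.8 in replicate 2), 39736301 to 39737017 on chromosome 12 (28.0 and 21.7) and 41358149 to 41358788 on chromosome 5 (27.5 and 20.2) had the most similar folds in both replicates. The site on chromosome 20 at 47747271 to 47747946 had 37.1 in replicate 1 and 20.2 in replicate 2, and that at 46964665 to 46965349 had 26.7 and 12.6. On chromosome 13 the site at 44857534 to 44859224 had 34.7 and 17.5, on chromosome 14 the site at 988151 to 989071 had 34.4 and 17.4, and on chromosome 12 the site at 226357 to 227039 had 25.5 and 16.8. The largest gaps between replicates were on chromosome 14 at 309921 to 310644, with 34.3 against 5.93, and on chromosome 18 at 695213 to 696185, with 30.8 against 12.02.

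Among these 20 sites, 19 had the higher fold in replicate 1, and the exception was the strongest. The median ratio of replicate 1 to replicate 2 was 1.59. Over all 1579 terminal sites the mean log2 ratio was −0.078, in the other direction. The 20 were chosen by the mean −log10 q of the same 2 lists, so they can include sites strong mainly in 1 replicate. Of the 20 strongest sites between 1 and 5 Mb, 14 had the higher fold in replicate 1, with a median ratio of 1.13, and of the 20 strongest inner sites 14, with 1.05. Those sets were stronger, with mean folds down to 36.0 and 42.6, against 19.6 in the terminal set, so the ratios were not compared at equal strength. Within each set of 20, all sites had more fragments over the summit in replicate 1. The SD of a fold over 2 replicates comes from a single difference and reached 20.03 at the chromosome 14 site, so the order of these sites is not resolved.

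**Figure D3:**
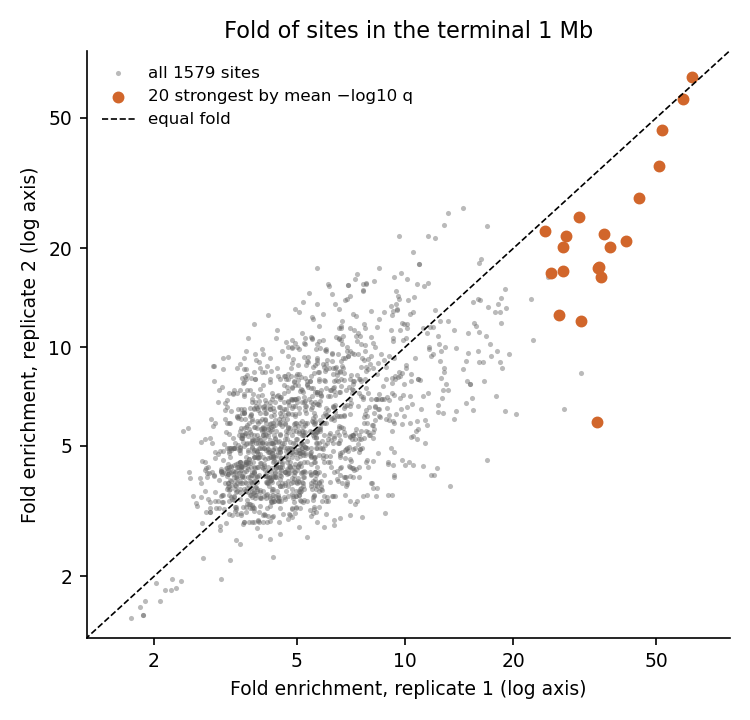
Fold enrichment over the local background in replicate 1 (horizontal log axis) and replicate 2 (vertical log axis) for the 1579 sites in the terminal 1 Mb, with the 20 strongest by mean −log10 q as large points and a dashed line at equal fold. The 20 strongest lie below the line except the first, at 62.7 and 66.6, and the central 90% of all sites spans 3.11 to 12.8 on the horizontal axis and 3.21 to 12.9 on the vertical axis.

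Agreement between replicates did not differ detectably between the ends and the zone further in. Of the terminal peaks, 71.8% of those of replicate 1 and 71.9% of those of replicate 2 had a partner, against 70.6% and 71.9% between 1 and 5 Mb (differences per chromosome of 1.38 and −0.15 percentage points, adjusted exact permutation p = 0.59 and 0.90). With the stronger 50% of each list, the difference for replicate 2 was −3.59 percentage points and negative on 13 of 20 chromosomes (exact permutation p = 0.022, adjusted p = 0.28). The summits of a pair lay a median of 38 bp apart in both zones (adjusted exact permutation p = 0.86). The absolute log2 ratio of the 2 folds had a per-chromosome median of 0.41 at the ends and 0.40 further in (adjusted exact permutation p = 0.73). Across the 1579 terminal pairs the folds had a Spearman rho of 0.51 and the log2 folds a Pearson r of 0.62, which is a description over sites of the same 2 libraries. Between 1 and 5 Mb the values were 0.51 and 0.62 as well. The folds differed by more than a factor of 2 at 149 terminal sites (9.44%), of which 57 were higher in replicate 1 and 92 in replicate 2. Between 1 and 5 Mb this held for 610 sites (8.94%), of which 284 were higher in replicate 1 and 326 in replicate 2.

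Peaks without a partner were weaker than paired ones in both zones. Between 1 and 5 Mb their median fold was 3.79 in replicate 1 and 4.06 in replicate 2. Terminal peaks without a partner had a median fold of 3.81 in replicate 1 (620 peaks) and 4.14 in replicate 2 (617 peaks). The strongest of them, named after their values had been seen, was on chromosome 16 (37407979 to 37408464) in replicate 1, where it had 103 fragments and a fold of 13.8, and the nearest summit of replicate 2 was 22.0 kb away. In replicate 2 it was on chromosome 8 (46823472 to 46823858), where it had 61 fragments and a fold of 9.55, 14.6 kb from the nearest summit of replicate 1.

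Spacing, width and fragment number showed small differences that did not pass adjustment. Another shared site lay within 2 kb at 290 of the 1579 terminal sites (18.4%), against 21.2% between 1 and 5 Mb. The per-chromosome difference was −3.28 percentage points and was negative on 13 of 20 chromosomes (95% interval −6.25 to −0.34, exact permutation p = 0.030, adjusted p = 0.25). A lower density by itself leaves fewer close neighbours, and the part of density in this value was not tested. The number of fragments over the summit, inferred from the deposited fold and p, had medians of 40 (replicate 1) and 38 (replicate 2) at the ends. Its per-chromosome median on the log2 scale was 0.030 lower than between 1 and 5 Mb (95% interval −0.057 to −0.0023, exact permutation p = 0.034, adjusted p = 0.25). Without replicate 1 that difference turned to 0.025 on the log2 scale. Peak widths had medians of 449 bp (replicate 1) and 385 bp (replicate 2), and the mean of both differed by −7.01 bp from the next 4 Mb (adjusted exact permutation p = 0.52).

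Neighbouring terminal sites lay a median of 14.4 kb apart, with the middle 50% of gaps between 5.31 and 31.1 kb. The closest pair was 478 bp apart. After the gap on chromosome 13, the longest stretches without a shared site were 270 kb at the far end of chromosome 16 and 217 kb at the far end of chromosome 8. The fullest windows of 20 kb held 7 shared sites each. One lay at the start of chromosome 7, from 676049 to 692873, where folds were 3.28 to 7.82 in replicate 1, while replicate 2 spanned 3.39 to 15.6. The other lay at the far end of chromosome 14, from 48281537 to 48300245, with folds of 3.72 to 18.5 in replicate 1 and 4.31 to 14.1 in replicate 2. Neither window held one of the 20 strongest sites.

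A few terminal sites rested on a high local background. The inferred background was above 20 fragments at 13 of the 1579 sites (0.82%), against 0.50% between 1 and 5 Mb and 1.55% in the inner part. These 13 had backgrounds of 55.0 to 227 in replicate 1 and of 65.4 to 239 in replicate 2, while the other 1566 sites stayed at or below 12.8 and 13.4. Their fragment counts were high, with medians of 227 and 196, but their folds were low, with medians of 2.08 and 1.81. The per-chromosome median background of the terminal zone did not differ detectably from that between 1 and 5 Mb, at 6.64 against 6.65 fragments (95% interval of the difference −0.063 to 0.050, adjusted exact permutation p = 0.86). Many terminal sites shared the lowest inferred values, 6.11 in replicate 1 and 5.49 in replicate 2. The background was solved only at called peaks, so these medians do not describe the ends outside them.

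Of the 13 sites, 5 formed one run at the far end of chromosome 12, from 39183938 to 39194747, with summits spread over 8.70 kb. Their folds were 2.14 to 2.39 in replicate 1 and 1.81 to 1.96 in replicate 2, on 313 to 523 and 292 to 442 fragments. The nearest other shared site on the inner side, at 39161056 to 39161519, had backgrounds of 6.81 and 5.60 and folds of 3.84 and 4.85. Another of the 13 was the outermost shared site of chromosome 17 at its far end, 41579969 to 41580405, with folds of 1.83 and 1.61. The other 7 lay singly on chromosomes 8, 14, 15 and 19. What sequence collects fragments there was not tested.

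**Figure D4:**
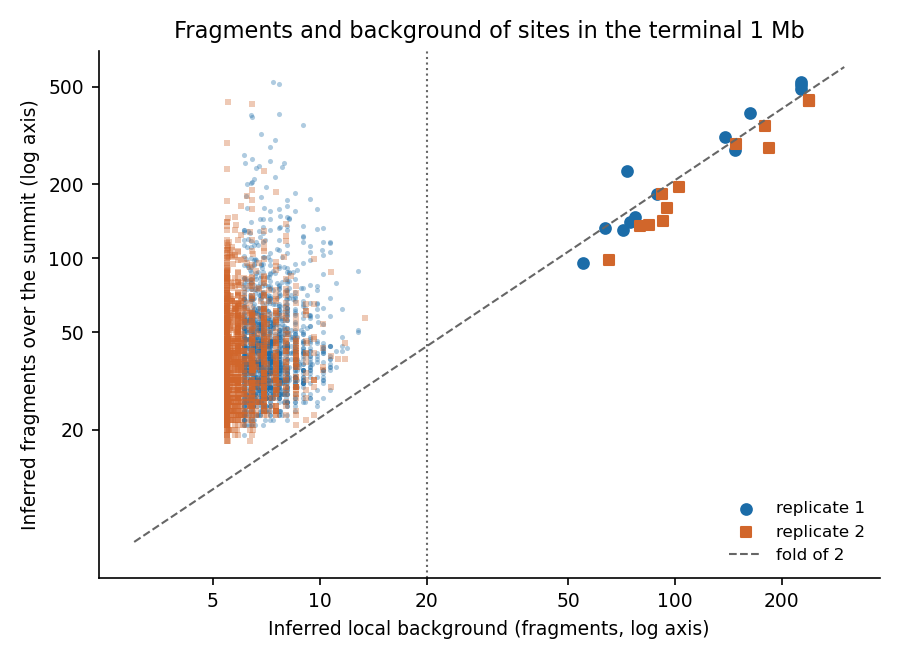
Inferred fragments over the summit (vertical log axis) against the inferred local background (horizontal log axis) of the 1579 sites in the terminal 1 Mb, for replicate 1 (circles) and replicate 2 (squares); the dotted line marks a background of 20, the dashed line a fold of 2, and large points the 13 sites above 20. The 13 sites lie near the fold of 2 at backgrounds of 55.0 to 239, and all other sites lie at or below 13.4.

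The 50 kb just inside the limit of 1 Mb held 85 sites with median folds of 5.54 (replicate 1) and 5.84 (replicate 2), and the 50 kb just outside held 97 sites with 4.96 and 5.24. The larger steps of 100 kb between 1 and 5 Mb had median folds of 4.55 to 5.50 in replicate 1 and of 4.94 to 5.77 in replicate 2. The difference at the limit was not tested.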

How the data were processed

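Peak lists of 2 ChIP samples were analysed, and the 2 input samples were not used here as files. The submitters' processing notes name Bowtie 0.12.7 and MACS3. The sources used here state no options, control or genome build. Peaks were called per replicate, and the peak names carry a q threshold of 0.01, per the file contents. The second list's peak names read BR3, although its label says replicate 2, and the labels were followed. The deposited fold of a peak is a ratio of ChIP signal to local background. The authors' −log10 p and −log10 q were used as deposited. The deposited score was not used. No library total was used, so depth is unknown. Fragments and background at each summit were solved from the deposited fold and p, at a relative tolerance of 2e-05, which held for 100% of 28524 and 28263 peaks. They are inferred values with counting error.

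Zones were compared per chromosome by exact two-sided sign-flip permutation tests, and 95% intervals come from inverting them (Python 3.11.15, scipy 1.17.1, numpy 2.4.6, pandas 2.3.3). Pairing, solving and the test were tested on simulated data. Named sites were the 20 with the highest mean −log10 q, the fullest and emptiest ends, the extreme outermost sites and the fullest 20 kb windows. The zone and these choices were made with earlier results of these data known. Genes and motifs were left out for lack of a genome of the files' build.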

Additional observations from a re-analysis of the deposited data

How the results depend on the processing

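None of the 15 tests passed adjustment as first set, 2 had an unadjusted exact permutation p below 0.05, and 3 of 148 tests under alternatives passed, all with the 0.5 Mb window given above (−7.46 shared sites per Mb, −11.8 peaks per Mb in replicate 1 and −10.2 in replicate 2). Adjustment was made within each alternative setting and not over all 148 tests. Of 153 values under alternatives, 128 kept their sign and their side of the threshold, and the values that did not are given here.

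The sharing of replicate 2 peaks, first −0.15 percentage points, became 0.10 with summits within 100 bp, 0.82 with an overlap of at least 50% of both peaks and 0.19 with a window of 2 Mb. The log2 fold of starts against far ends, first 0.017, became −0.10 with the stronger 50% of each list, −0.026 with the 0.5 Mb window, −0.0038 with the 2 Mb window and −0.0011 without chromosome 13, and ran from −0.031 to 0.038 when a replicate was left out. With the 2 Mb window, density became 0.65 sites per Mb, peak density 0.92 in replicate 1 and 0.82 in replicate 2, the background 0.0010 fragments and the summit distance 0.43 bp. With the 0.5 Mb window the summit distance became 1.68 bp and the absolute log2 fold ratio −0.00100. That ratio was −0.013 against 1 to 2 Mb. All of these had an adjusted exact permutation p of 0.22 or more.

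With a replicate left out, the log2 fold ran from −0.025 to 0.017, the log2 fragments from −0.018 to 0.025 and the width from −8.13 to 0.85 bp. The outermost 250 kb, an alternative chosen after the data had been seen like the 0.5 Mb window with starts at the first peak, held 15.2 sites per Mb fewer than the rest of the zone (−15.2), which became −10.7 with starts at the first peak and −18.8 to −21.6 peaks per Mb with a replicate left out. No paired analysis was possible because both lists belong to the ChIP group and no input values were used. Weak peaks, near 18 fragments, are limited by counting error.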
